A study of Mus musculus with 24 samples.

Results

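The response of Ift88-depleted myoblasts to being put back on a surface after arrest in suspension was measured by comparing 6 arrays of the 24 in the study. Both groups were C2C12 cells, a line of mouse skeletal myoblasts, transfected with siRNA against Ift88 (written IFT88KD). The 3 quiescent arrays came from cells held in suspension, and the 3 replated arrays from such cells 2 h after they were returned to a dish. Medium with 20% fetal bovine serum was used in both states. Members were chosen by the sample titles and not by any measured value. The 6 arrays of cells that were given a negative control siRNA and carried through the same steps served for comparison, and proliferating IFT88KD arrays (attached, 20% serum, n = 3) gave a reference level. The labels do not say whether the 3 arrays of a group came from separate cultures, so the spread between them may be technical. The p-values rest on a spread within groups that is shared over all 24 arrays. That spread includes proliferating and differentiating cells and is not that of the 6 arrays alone.

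Myoblasts deprived of anchorage leave the cell cycle reversibly, and attachment to a surface lets them spread, rebuild focal adhesions and return towards G1. Cells that re-enter the cycle classically switch on immediate early genes, which need no new protein synthesis, followed by growth factor, ribosome and G1 genes. Ift88 encodes a component of the intraflagellar transport complex that builds the primary cilium, an organelle that most cells carry while arrested and take down when they return to the cycle.

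Levels are given as log2 values after quantile normalisation over the 24 arrays, and changes as replated minus quiescent log2 values with their standard error (SE) from limma. Of 8597 genes tested, 5441 (63.3%) were called, of which 2368 rose (27.5% of all tested) and 3073 fell (35.7%) on replating, at a Benjamini-Hochberg adjusted p of 0.05, and the median change of all genes was -0.08. The shares of 27.5% and 35.7% are the background for the counts of each gene list below. The lists were chosen with earlier results of these data known. Their counts are therefore a description beside these shares and not a test against them. A change of at least 1 log2 was reached by 603 of the genes that rose and 713 of those that fell, and a change of at least 2 by 85 and 58. On the deposited scale the replated arrays lay lower overall (array medians of 2.94 to 2.97 against 3.79 to 3.85 on the quiescent arrays). Without further scaling 868 genes rose and 5742 fell around a median of -0.59, and with each array centred on its median 2732 rose and 2726 fell. A shift shared by many genes on replating and a difference in how the deposited values of the 4 states were scaled cannot be told apart, so changes are given relative to the bulk of genes. In bulk samples, fewer cells of a type and less RNA per cell cannot be told apart either.

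Ift88 itself was measured by 1 probe set. Its level was 3.62, 3.23 and 3.13 on the IFT88KD quiescent arrays and 2.34, 2.51 and 2.38 on the IFT88KD replated arrays. On the control arrays it was 4.16, 3.93 and 3.98 in quiescent and 3.26, 2.78 and 3.44 in replated cells. Every IFT88KD array thus lay below every control array of its state, by 0.70 (SE 0.17, adjusted p = 0.0178) in quiescent and by 0.75 (SE 0.17, adjusted p = 0.0198) in replated cells. Ift88 fell on replating by 0.91 (SE 0.17, adjusted p = 1.14e-04) in IFT88KD cells and by 0.86 (SE 0.17) in control cells. Its signal on the IFT88KD replated arrays stood at percentiles 40.5 to 42.1 of all probe sets, just above the 40th percentile used as the filter on low values, so the size of these differences is uncertain.

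The cells carried the markers of their line. All 6 skeletal muscle markers (Des, Myod1, Myf5, Cdh15, Chrna1 and Actc1) lay above the filter on all 6 arrays, with a summed level of 10.70 to 10.99 in quiescent and 10.22 to 10.52 in replated cells, and 0 rose and 2 fell (1 rose and 4 fell with the replicate number as a block in limma). All 6 endothelial markers lay under the filter on all 6 arrays, as did 4 of 5 epithelial markers. Of 7 macrophage markers Adgre1, Ptprc and Lyz2 lay under the filter on all 6 arrays, and Cd14 (5.68 to 6.44) and Csf1r (2.39 to 3.69) above it on all 6. Summed macrophage markers were at 6.61 to 6.76 in quiescent and 6.27 to 6.50 in replated cells. Summed fibroblast markers were at 8.44 to 8.65 and 6.78 to 7.46, with Pdgfra alone at 8.32 to 8.56 and 6.42 to 7.22. Adipocyte markers were at 9.03 to 9.58 and 8.29 to 8.57, with Lpl alone at 8.98 to 9.51 and 8.15 to 8.4. Bone and cartilage markers were at 7.21 to 7.61 and 6.71 to 7.33, with Sox9 alone at 7.05 to 7.51 and 6.54 to 7.23. These sums thus lay close to the level of Pdgfra, Lpl and Sox9. Dpt, Thy1, Tcf21, Adipoq, Acan and Col2a1 lay under the filter on all 6 arrays. The part of other cell types in the changes below was not tested.

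Several ligand genes were among the largest rises. Pdgfb, which encodes a platelet-derived growth factor chain, stood at 3.15, 2.89 and 3.36 on the quiescent arrays and at 8.94, 9.01 and 8.71 on the replated arrays, a rise of 5.75 (SE 0.15, adjusted p = 5.57e-17, 53.8-fold). The arrays of each state lay within 0.5 log2 of each other, and a second Pdgfb probe set changed by 3.11. Hbegf, a membrane-anchored ligand of the EGF receptor, went from 5.70, 5.79 and 6.13 to 10.15, 10.00 and 9.92, a rise of 4.15 (SE 0.25, adjusted p = 4.04e-11, 17.8-fold). Its replated arrays lay far above both the quiescent arrays and the proliferating mean of 5.74. Pdgfa, the other classical PDGF chain, rose by 2.78 (SE 0.11), from 6.88, 6.81 and 6.95 to 9.58, 9.68 and 9.70. Of 17 growth factor ligands tested, 10 rose and 4 fell with a median of 0.46, which turned to -0.08 on the deposited scale. Pgf, the placental growth factor, rose by 1.16 (SE 0.14), while Vegfb fell by 1.02 (SE 0.24) and Hgf, the ligand of Met, by 0.86. A second Hgf probe set changed by -0.12 from a quiescent mean of 4.69.

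On the receiving side, 7 of 13 receptors and adaptors rose and 2 fell, with a median of 0.41 that was -0.13 on the deposited scale. The 2 insulin receptor substrates moved in opposite directions. Irs1 fell from 8.95, 8.54 and 8.69 to 7.40, 6.58 and 6.85, by 1.79 (SE 0.16, adjusted p = 6.87e-09), while Irs2 rose from 4.48, 4.51 and 4.25 to 6.09, 6.24 and 5.84, by 1.64 (SE 0.17, adjusted p = 4.35e-08). Neither pair of states overlapped. Pdgfra, a receptor for both PDGF chains, fell by 1.57 (SE 0.19) while Pdgfrb rose by 0.63. Fgfr2 rose by 1.34 (SE 0.15), and its other probe set changed by 0.19 from a quiescent mean of only 1.34.

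Inhba, which encodes the activin A subunit, rose from 7.16, 6.71 and 7.54 to 11.16, 11.54 and 11.26, by 4.18 (SE 0.22, adjusted p = 3.07e-12, 18.1-fold). Fst, which encodes the activin antagonist follistatin, rose with it, by 1.92 (SE 0.19), whereas Inhbb, another activin subunit, fell by 1.51. The transcriptional repressors of TGF-beta signalling Tgif1 and Skil rose by 1.71 (SE 0.11) and 1.23 (SE 0.14), and the inhibitory Smad7 by 1.13. In the TGF-beta, activin and BMP list as a whole 8 of 22 genes rose and 4 fell, with a median of 0.31 (-0.23 on the deposited scale).

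Among 15 genes of the IL-6 family, its receptors and its targets, 10 rose and 2 fell, with a median of 0.75 that stayed above 0 on the deposited scale (0.42). Il6, a cytokine that muscle cells themselves secrete, was at 5.34, 5.46 and 6.94 on the quiescent arrays and at 8.72, 9.96 and 10.02 on the replated arrays, a rise of 3.65 (SE 0.59, adjusted p = 2.04e-05). Quiescent replicate 3 stood above the other two but below every replated array, and the proliferating mean was 1.29. Il11 rose by 3.0 (SE 0.18) from a signal under the filter on all 3 quiescent arrays, so the size of its change is uncertain. Clcf1, another ligand of this family, rose by 2.84 (SE 0.22), and Lif by 1.85 (SE 0.48). A second Lif probe set changed by -0.17 from a quiescent mean of only 1.28. Cish, a feedback inhibitor of cytokine receptors, rose by 1.79 (SE 0.17), while Lifr, the receptor for Lif, fell by 1.14 (SE 0.15), with -0.11 and -0.20 at its other probe sets.

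Of 21 inflammatory and chemokine genes 11 rose and 6 fell, with a median of 0.86. The members that rose included the NF-kappa-B subunit gene Nfkb2 (1.72, SE 0.17), the atypical I-kappa-B gene Bcl3 (1.69, SE 0.25), the macrophage growth factor gene Csf1 (1.49, SE 0.22) and Ptgs2, which encodes the inducible prostaglandin synthase (1.46, SE 0.33). Cxcl12, the chemokine that retains cells bearing Cxcr4, fell from 7.6, 7.77 and 7.21 to 6.08, 6.02 and 5.68, by 1.60 (SE 0.20, adjusted p = 5.67e-07). Ccl5 was among the 15 largest rises (3.51, SE 0.16), from a signal under the filter on all quiescent arrays. Irf1, an interferon regulatory factor, fell by 1.94 (SE 0.30).

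Immediate early genes did not move as 1 group. Fos, the AP-1 subunit usually taken as the standard early response gene, was at 9.46, 10.18 and 9.88 on the quiescent arrays, against a proliferating mean of 4.33, and at 6.91, 6.39 and 6.46 on the replated arrays. It fell by 3.25 (SE 0.65, adjusted p = 2.04e-04, 9.51-fold), and the states did not overlap. Jun fell from 8.90, 8.99 and 8.82 to 8.22, 7.5 and 7.70, by 1.10 (SE 0.21, adjusted p = 1.14e-04). The replated mean of Fos stayed above its proliferating mean, and that of Jun, 7.81, lay close to its proliferating mean of 7.77. Maff and Fosl2 rose, by 1.34 (SE 0.22) and 0.87 (SE 0.10), the latter being -0.02 on the deposited scale. Fosb had 4.94, 7.18 and 6.68 in quiescent and 5.92, 5.95 and 6.10 in replated cells, with overlapping states and a change of -0.27 (SE 0.44, adjusted p = 0.607), which became -0.93 (adjusted p = 0.0416) without IFT88KD quiescent replicate 1. In all, 2 of 10 AP-1 genes rose and 2 fell, with a median of 0.04 that was below 0 on the deposited scale (-0.35) and with array weights (-0.03).

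Of 20 other early response genes 8 rose and 4 fell, with a median of 0.26 (-0.15 on the deposited scale). Egr1, a zinc-finger activator induced by serum and stretch, fell from 10.70, 10.74 and 10.85 to 9.63, 8.33 and 8.85, by 1.82 (SE 0.26, adjusted p = 4.95e-06). The genes of the mRNA-decay factors Zfp36 and Zfp36l1 fell by 1.75 (SE 0.19) and 2.09 (SE 0.30). Srf, the serum response factor gene, rose from 5.95, 6.07 and 6.0 to 8.19, 7.6 and 7.81, by 1.86 (SE 0.15, adjusted p = 1.77e-09, 3.63-fold), and the orphan receptor gene Nr4a2 rose by 2.10 (SE 0.22). Klf5 and Myc rose by 1.59 (SE 0.14) and 1.11 (SE 0.29). Myc, a driver of growth and of ribosome production, went from 6.94, 7.16 and 7.67 to 8.52, 8.15 and 8.43, so all replated arrays lay above all quiescent arrays, whose replicate 3 was the highest. The plot of levels by array shows both patterns, Fos and Egr1 highest in suspension and Srf and Myc highest after replating.

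**Figure D1:**
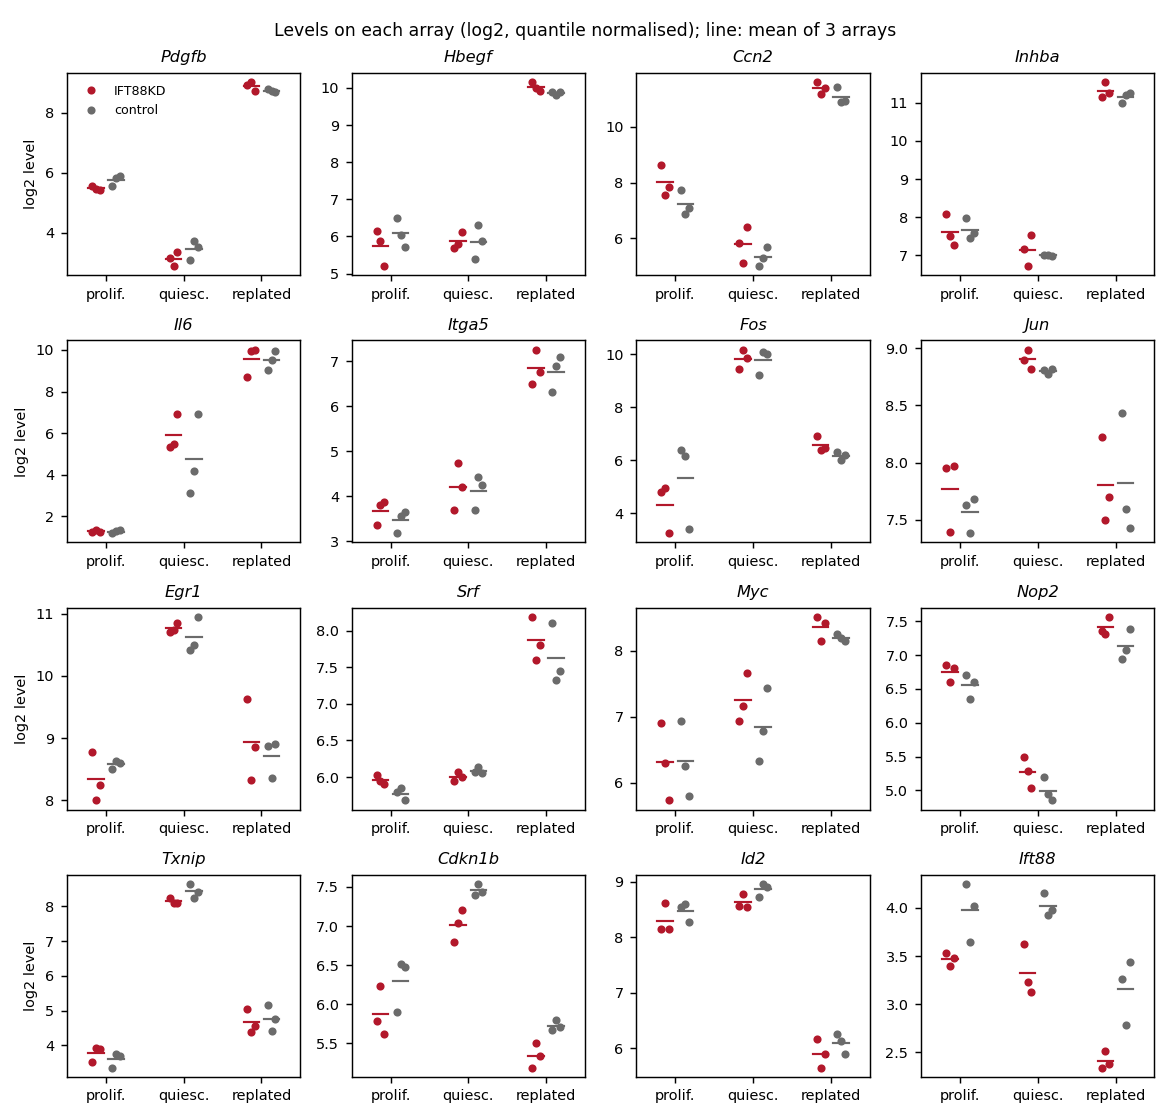
Level of 16 genes on each array (y axis, log2 after quantile normalisation) in proliferating, quiescent and replated cells, with IFT88KD in red, control siRNA in grey and a line at the mean of 3 arrays. Pdgfb, Hbegf, Ccn2, Inhba, Il6, Itga5, Srf, Myc and Nop2 lay higher on all replated than on all quiescent IFT88KD arrays, and Fos, Jun, Egr1, Txnip, Cdkn1b, Id2 and Ift88 lower.

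The promoters of called early response genes were searched for the CArG box, the site that serum response factor binds, since that factor controls many genes of this class. RefSeq sequences (GRCm38.p6) of the 250 bases before the start were held for 12 of the 16 called immediate early genes. A CArG box on either strand was found in 2 of these (16.7%), against 113 of 6974 tested genes with a sequence (1.62%) and 482 of all 32851 windows (1.47%). One gene of the pair rose and the other fell on replating. They are shown, 100 bases each 5′ to 3′ on the gene's strand, to let their sites be set beside those opposite changes, with the CArG boxes in capitals. The Srf stretch lies at chr17:46556163-46556262 (minus strand) and holds 2 boxes, and the Zfp36 stretch at chr7:28379229-28379328 (minus strand) holds 1.
Srf: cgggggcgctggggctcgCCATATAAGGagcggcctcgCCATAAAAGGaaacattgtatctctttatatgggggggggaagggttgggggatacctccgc
Zfp36: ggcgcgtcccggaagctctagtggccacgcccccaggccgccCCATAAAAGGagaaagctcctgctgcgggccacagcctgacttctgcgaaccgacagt
A match describes these letters only, and a set of 12 genes is too small to rank. Besides the CArG box 3 other motifs were searched. AP-1 sites (TGAGTCA, either strand) were found in 0 of the 12 windows and in 4.26% of tested genes. The E-box CACGTG was found in 2 of the 12 (16.7%, against 10.2%) and the CRE motif TGACGTCA in 1 (8.33%, against 2.97%).

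Of 14 feedback regulators of MAP kinase signalling 7 rose, where 27.5% of all genes rose, and 5 fell, near the 35.7% of all genes. Their median was 0.50, and -0.01 on the deposited scale. Dusp1, a phosphatase that inactivates MAP kinases, fell from 8.52, 9.06 and 9.25 to 7.53, 7.45 and 7.42, by 1.48 (SE 0.24, adjusted p = 1.77e-05). Rgs2, a regulator of G protein signalling, fell by 2.41 (SE 0.37), Spry4 by 1.23 and Dusp14 by 1.09. Errfi1, an inhibitor of the EGF receptor, rose by 1.16 (SE 0.26).

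Genes that respond to adhesion and to actin were next examined. Of 28 targets of SRF with its MRTF partners or of YAP, 19 rose and 1 fell (2 fell with the replicate block), where 27.5% of all genes rose, and the median of 0.57 stayed above 0 on the deposited scale (0.06). Ccn2, the connective tissue growth factor gene and a standard YAP target, went from 5.83, 5.13 and 6.42 to 11.59, 11.17 and 11.40, a rise of 5.59 (SE 0.35, adjusted p = 7.27e-11, 48.2-fold). Its replated arrays also lay above the proliferating mean of 8.03. Ccn1 rose by 1.86 (SE 0.22), the YAP-pathway scaffold gene Amotl2 by 1.87 (SE 0.14), and the SRF targets Fhl2 and Tagln by 1.56 (SE 0.16) and 1.28 (SE 0.21). Tagln reached a replated mean of 8.71 against 10.12 in proliferating cells.

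The genes for integrins and adhesion proteins rose in 13 of 25 cases and fell in 3, with a median of 0.32 (-0.22 on the deposited scale). Itga5, the alpha subunit of the fibronectin receptor, rose from 3.69, 4.74 and 4.20 to 6.49, 7.26 and 6.77, by 2.63 (SE 0.28, adjusted p = 9.12e-08, 6.19-fold), and a second probe set changed by 1.81. The gene of its beta partner, Itgb1, changed by -0.39 and was not called. Bcar1, the adaptor p130Cas of focal adhesions, rose by 1.69 (SE 0.08), with quiescent values of 7.26, 7.24 and 7.35 and replated values of 9.03, 8.93 and 8.95. The urokinase gene Plau and the gene of its receptor, Plaur, rose by 1.84 (SE 0.31) and 1.98 (SE 0.14), although a second Plau probe set changed by 0.22. Serpinb2, a urokinase inhibitor, had the third largest rise of all genes, from 1.92, 2.31 and 3.11 to 6.85, 7.66 and 7.24, by 4.81 (SE 0.57), with 1 quiescent array under the filter.

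Among 44 matrix genes 12 rose, a share near the 27.5% of all genes, and 6 fell (median 0.03, -0.29 on the deposited scale). Tnc, the tenascin C gene, rose most, by 1.73 (SE 0.25), and the basement membrane collagens Col4a1 and Col4a2 rose by 0.97 and 0.74. A second Col4a1 probe set changed by 0.38 from a quiescent mean of 6.53. Of 16 metalloproteinase and inhibitor genes 4 rose and 6 fell, both near the shares of all genes (27.5% and 35.7%), with a median of -0.36. Timp3, a matrix-bound inhibitor, rose from 9.18, 8.84 and 9.28 to 11.36, 11.26 and 11.27, by 2.19 (SE 0.21, adjusted p = 2.30e-08). Tubulin genes rose in 8 of 14 cases and fell in 4, led by Tubb3 (1.38, SE 0.14) and Tubb6 (1.35, SE 0.13), with a median of 0.41 that was -0.03 on the deposited scale.

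The highest median of the 38 gene lists was that of ribosome biogenesis, the making of ribosomal RNA and its assembly with proteins in the nucleolus. Of 40 such genes tested 35 rose, 3 fell and 2 were not called, where 27.5% of all genes rose and 35.7% fell. Their median change was 1.14, against -0.08 for all genes, and was 0.73 on the deposited scale and 1.32 with arrays centred on their medians. The largest changes were in Ppan (2.46, SE 0.15), Rrp12 (2.25, SE 0.20), Wdr43 (2.16, SE 0.16) and Nop2 (2.14, SE 0.14), all of which act in processing of ribosomal RNA or assembly of the subunits. Nop2 went from 5.50, 5.28 and 5.04 to 7.36, 7.32 and 7.57, and Ppan from 5.43, 5.10 and 5.26 to 7.59, 7.6 and 7.98. The replated arrays of both lay above the proliferating means of 6.75 and 6.51. The 3 genes that fell were Ddx10 (-0.57), Nop10 (-0.34) and Npm1 (-0.27), named after their values were seen.

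Translation and nucleotide synthesis genes followed, with 16 of 25 rising, 2 falling and a median of 0.46 (0.14 on the deposited scale). The enzymes Ctps, which makes CTP, and Srm, which makes spermidine, rose by 1.53 (SE 0.15) and 1.33 (SE 0.13). Srm was at 6.62, 6.67 and 6.65 in quiescent and 8.00, 7.94 and 7.98 in replated cells, with less than 0.1 log2 between arrays of a state. Ppat and Umps, of purine and pyrimidine synthesis, rose by 1.19 and 1.03, while Prps1, which makes their common precursor, fell by 0.92. Among 31 genes of the unfolded protein and integrated stress responses 10 rose and 5 fell (median 0.27, -0.18 on the deposited scale). The share that rose was near the 27.5% of all genes. Those that rose were led by Chac1 (2.09, SE 0.29), Sesn2 (1.31, SE 0.48) and Asns (1.2, SE 0.15), targets of the transcription factor ATF4. The Sesn2 call was lost without IFT88KD quiescent replicate 1 (1.08), replated replicate 1 (1.28) or replated replicate 2 (1.04), and on the deposited scale (0.73).

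**Figure D2:**
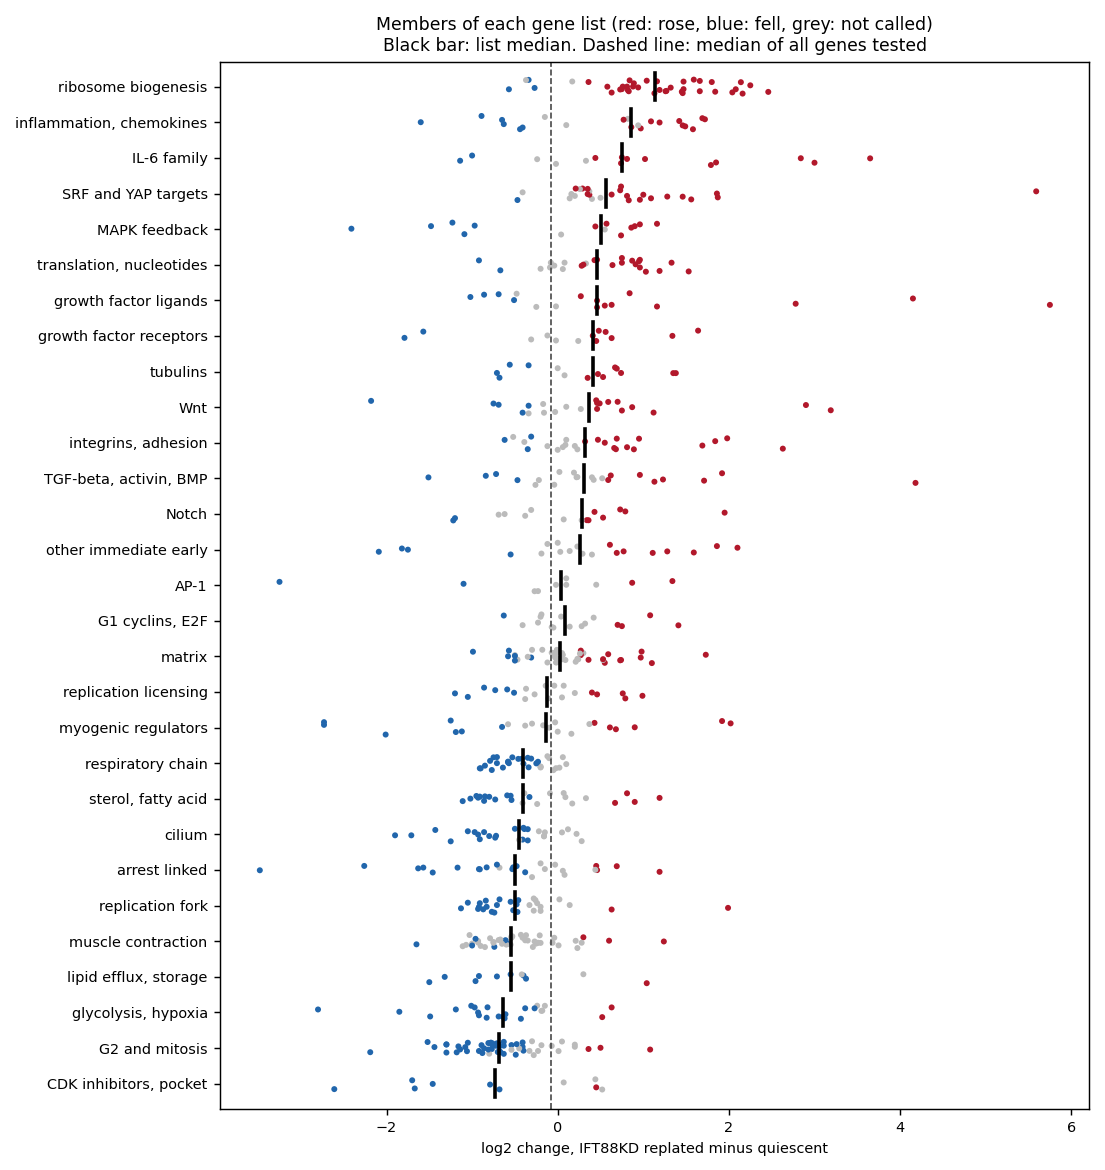
Log2 change from quiescent to replated IFT88KD cells (x axis) for the members of 29 gene lists (rows), with genes that rose in red, those that fell in blue and those not called in grey. A black bar marks the list median (1.14 for ribosome biogenesis, -0.69 for G2 and mitosis), and the dashed line the median of all genes at -0.08.

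Many genes linked to growth arrest were lower after replating. Txnip, which restrains glucose uptake and binds thioredoxin, had the second largest fall of all genes tested, from 8.23, 8.10 and 8.11 to 5.04, 4.38 and 4.56, by 3.48 (SE 0.19, adjusted p = 5.29e-12, 11.2-fold). The p53- and Foxo-linked Sesn1 fell by 2.26 (SE 0.15), the unconventional cyclin gene Ccng2 by 1.63 (SE 0.22), the Myc antagonist gene Mxi1 by 1.57 (SE 0.16) and Foxo1 by 1.46 (SE 0.19). Other Foxo1 probe sets changed by -0.91 and -1.08, and one with means of only 0.83 and 1.51 by 0.68. In the arrest-linked list as a whole 14 of 26 genes fell and 4 rose, where 35.7% of all genes fell, with a median of -0.50. That median was 1.78 above the proliferating level in quiescent cells and 1.14 above it in replated cells, so the list's median remained above the proliferating level 2 h after replating.

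Among CDK inhibitors and pocket proteins 6 of 10 genes fell and 1 rose (3 rose with the replicate number as a block), with a median of -0.73. Cdkn2d, which encodes p19, an inhibitor of CDK4 and CDK6, fell from 6.04, 5.82 and 5.97 to 3.34, 3.23 and 3.43, by 2.61 (SE 0.13, adjusted p = 1.19e-12). Cdkn1b, which encodes p27, fell from 6.79, 7.04 and 7.20 to 5.19, 5.50 and 5.34, by 1.67 (SE 0.16, adjusted p = 2.54e-08), below its proliferating mean of 5.88. The retinoblastoma relatives Rbl1 and Rbl2 fell by 1.70 (SE 0.21) and 1.46 (SE 0.20). Cdkn1a, which encodes p21, did not follow: it was at 10.12, 9.95 and 10.05 in quiescent and 10.47, 10.59 and 10.63 in replated cells, a change of 0.52 (SE 0.23, adjusted p = 0.0523) that passed with the replicate number as a block (adjusted p = 1.26e-04). Its proliferating mean was 8.94.

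Of 16 G1 cyclin and E2F genes 4 rose, near the 27.5% of all genes, and 1 fell. With the replicate block 5 rose and 4 fell. The median of 0.09 was -0.49 on the deposited scale and -0.01 with a stricter filter at the 60th percentile. Ccnd1, the cyclin D1 gene, was at 6.78, 6.49 and 7.08 in quiescent and 7.44, 7.20 and 7.94 in replated cells, a rise of 0.75 (SE 0.25, adjusted p = 0.0144). The call was lost without IFT88KD quiescent replicate 2 (0.60) or replated replicate 3 (0.54), and on the deposited scale (0.39), and the proliferating mean was higher, at 8.71. Other Ccnd1 probe sets changed by 0.17 and 0.89 from quiescent means of 5.55 and 6.65. E2f3 and E2f8 rose by 1.41 (SE 0.16) and 1.08 (SE 0.17). Of 28 replication fork genes 17 fell and 2 rose, with a median of -0.50. Among 20 licensing genes 5 rose and 6 fell, near the shares of all genes (27.5% and 35.7%), with a median of -0.12. Both lists lay under the proliferating level after replating, by medians of 2.55 and 2.51. Tyms, which makes thymidylate, rose by 1.99 (SE 0.19) from a signal under the filter on all quiescent arrays. Its other probe sets changed by -0.06 and 0.24 from quiescent means of only 1.06 and 0.87.

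Genes of G2 and mitosis fell further on replating. Of 56 tested 40 fell and 3 rose, where 35.7% of all genes fell, and the median was -0.69. They stood a median of 3.47 under the IFT88KD proliferating level in quiescent cells and 4.35 under it after replating, with 0 of 56 above it in either state. Hmgb2, a chromatin protein of dividing cells, fell from 5.71, 6.24 and 5.94 to 3.66, 4.08 and 3.58, by 2.19 (SE 0.19, adjusted p = 5.82e-09). The condensin subunit gene Smc2 fell by 1.30 (SE 0.17) and the centromere protein gene Cenpf by 1.30 (SE 0.19). A second Cenpf probe set changed by -0.08 from a quiescent mean of only 1.53. Kif20a and Nuf2, of the central spindle and the kinetochore, fell by 1.52 and 1.44, and both were under the filter on all replated arrays, as were 12 of the 56 genes, so the sizes of these falls are uncertain. The 3 that rose were Foxm1 (1.08), Cks2 (0.50) and Ube2s (0.36), named after their values were seen. Other Foxm1 probe sets changed by 0.21, -0.06 and 0.39 from quiescent means of 2.5, 0.77 and 1.68.

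Glycolysis and hypoxia genes fell in 17 of 23 cases and rose in 2, with a median of -0.64. Adm, the adrenomedullin gene, fell by 2.80 (SE 0.18) to a signal under the filter on all replated arrays. It lay under the filter on all proliferating and differentiating arrays as well. Only its quiescent signal brought it into the test, so a fall was likely beforehand and its size is uncertain. Egln3, an oxygen-sensing hydroxylase, went from 8.36, 8.54 and 8.74 to 6.72, 6.43 and 6.92, by -1.85 (SE 0.19, adjusted p = 6.15e-08). The glucose transporter gene Slc2a3 fell by 1.49 (SE 0.22), with -0.16, -0.23 and -1.53 at its other probe sets. Their quiescent means were 1.19, 1.23 and 7.3. Bnip3, which marks mitochondria for removal, fell from 10.57, 10.59 and 10.68 to 9.46, 9.57 and 9.80, by 1.01 (SE 0.19). The list's median nevertheless remained 1.63 above the proliferating level, after 2.42 in suspension. The 2 genes that rose were Vegfa (0.63) and Hk2 (0.52), named after their values were seen.

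Nuclear genes for the respiratory chain fell in 21 of 31 cases and rose in 0, with a median of -0.40 and a range from -0.91 (Sdhd, a subunit of succinate dehydrogenase) to 0.10. With arrays centred on their medians the list's median was -0.12. Sterol and fatty acid genes fell in 13 of 25 cases, among them Fdft1 (-1.11, SE 0.16), and rose in 4, among them Sqle (1.19, SE 0.13). These are consecutive enzymes of cholesterol synthesis that moved in opposite directions. Of 3 other Fdft1 probe sets, 2 changed by 0.23 and 0.08 from quiescent means of only 1.41 and 1.35. The remaining one changed by -1.11 from 5.76. Lipid efflux and storage genes fell in 8 of 11 cases, led by Abca1, the cholesterol exporter, which went from 8.49, 8.44 and 8.09 to 7.0, 6.88 and 6.63 (-1.50, SE 0.12). Both other Abca1 probe sets changed by 0.06 or less in size, but had quiescent means of only 1.41 and 0.9. Proteasome subunits fell in 13 of 30 cases, where 35.7% of all genes fell, and rose in 3. Their median was -0.17, and 0.11 with centred arrays.

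Of the p53 targets 9 of 18 rose and 7 fell, with a median of 0.33 that was -0.17 on the deposited scale. The falls were near the 35.7% of all genes. The death receptor gene Fas rose by 2.29 and the p53-induced nuclease gene Aen by 1.73, while Trp53inp1 fell by 1.05. Heat shock and chaperone genes rose in 9 of 21 cases and fell in 1 (3 fell with the replicate block), with a median of 0.24 (-0.10 on the deposited scale). Antioxidant targets of Nrf2 rose in 6 of 20 cases, near the 27.5% of all genes, and fell in 4 (6 with the replicate block). Their median was 0.02, and -0.29 on the deposited scale and -0.06 with the 60th percentile filter. Of 22 lysosome and autophagy genes 2 rose and 8 fell, the falls being near the background share of 35.7%, with a median of -0.13. Of 20 interferon response genes on the array 8 were tested, and the others were left out by the filter. Of the 8 tested 1 rose and 5 fell, with a median of -0.58. Among them 2 lay under the filter on all quiescent IFT88KD arrays and 3 on all replated ones, so this median is uncertain.

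The Id genes, whose proteins bind E proteins and so block the myogenic factors, fell steeply. Id2 went from 8.57, 8.77 and 8.55 to 6.16, 5.65 and 5.90, by 2.73 (SE 0.17, adjusted p = 8.25e-11), and its other probe sets changed by -2.44 and -2.29. Id3 fell from 9.61, 9.66 and 9.28 to 7.40, 6.86 and 6.09, by 2.73 (SE 0.27, adjusted p = 2.71e-08), and Id1 from 9.38, 9.16 and 8.72 to 7.75, 7.01 and 6.47, by 2.01 (SE 0.30, adjusted p = 6.10e-06). In each case every replated array lay below every quiescent array, and the replated means lay below the proliferating means of 8.30 (Id2), 9.43 (Id3) and 8.79 (Id1).

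Of the factors that the Id proteins restrain, Myf5 fell by 1.12 (SE 0.13). Myod1, the master regulator of the myoblast state, was at 7.21, 6.97 and 7.31 in quiescent and 7.72, 7.26 and 7.62 in replated cells. Its change of 0.37 (SE 0.19, adjusted p = 0.104) passed with the replicate block (adjusted p = 0.00214), with centred arrays (0.61, adjusted p = 0.012) and without IFT88KD replated replicate 2 (0.51, adjusted p = 0.0471). Snai1, a repressor that occupies E-boxes in myoblasts, rose by 2.02 (SE 0.19), and its relative Snai2 fell by 1.25. In the list of myogenic regulators 6 of 22 genes rose and 7 fell, both near the shares of all genes (27.5% and 35.7%). The list's median was -0.14, and 0.11 with centred arrays.

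Of 48 muscle contraction genes 6 fell, 3 rose and 39 were not called, with a median of -0.54. With the replicate block 33 fell and 3 rose. Without overlap between states 24 of the 48 lay lower on the replated arrays and 3 higher. Among all 8597 genes 3321 lay lower and 2513 higher in this way. Casq1, the calcium store protein of the sarcoplasmic reticulum, fell from 5.21, 3.83 and 4.23 to 2.94, 2.47 and 2.92, by 1.65 (SE 0.26, adjusted p = 1.22e-05). The quiescent replicate 1 stood above the other two, and without it the list's median was -0.35.

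Of 27 cilium genes 18 fell and 0 rose (1 rose with the replicate block), where 35.7% of all genes fell, with a median of -0.45 that was -0.59 with centred arrays. Ttc8, a BBSome subunit, had the largest fall in the list, from 5.54, 5.91 and 5.61 to 3.49, 4.20 and 3.66, by 1.90 (SE 0.16, adjusted p = 2.53e-09). Ift81 fell from 6.51, 6.33 and 6.47 to 5.01, 4.52 and 4.67, by 1.71 (SE 0.16, adjusted p = 1.24e-08), and its partner gene Ift74 by 0.97 (SE 0.13). Ift80, which with Ift88 belongs to the IFT-B complex, fell by 1.05 (SE 0.14), and Kifap3, a subunit of the kinesin motor that carries these complexes, by 1.25 (SE 0.10). Ttc30b, another intraflagellar transport gene, was among the 15 largest falls (-2.69, SE 0.14), but lay under the filter on all replated arrays. The list's median was 0.25 above the proliferating level in quiescent cells and 0.50 under it in replated cells.

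Of 9 Hedgehog genes, whose signal passes through the cilium, 3 fell and 1 rose, a share of falls near the 35.7% of all genes. Gas1, a co-receptor that also accumulates in growth arrest, fell from 10.77, 10.60 and 10.60 to 9.92, 9.65 and 9.62, by 0.92 (SE 0.16). Gli2, a transcription factor of the pathway, fell by 0.83 (SE 0.16). Gli1, its usual target gene, was under the filter on all 6 arrays, with a change of -0.31 (SE 0.14, adjusted p = 0.0545), and its adjusted p was 0.0364 without IFT88KD quiescent replicate 1.

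In the Wnt list 11 of 22 genes rose and 5 fell (median 0.36, -0.21 on the deposited scale). Ccn4, a Wnt-induced secreted protein gene, rose from 6.71, 6.55 and 7.13 to 9.72, 9.76 and 9.60, by 2.90 (SE 0.13). Wnt11, a ligand, rose by 3.19 (SE 0.10) from a signal under the filter, and Dkk2, which encodes a Wnt antagonist, fell by 2.18 (SE 0.24). In the Notch list 7 of 15 genes rose and 2 fell (6 fell with the replicate block), and the ligand gene Jag1 rose by 1.95 (SE 0.22) while the target gene Hey1 fell by 1.22.

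**Figure D3:**
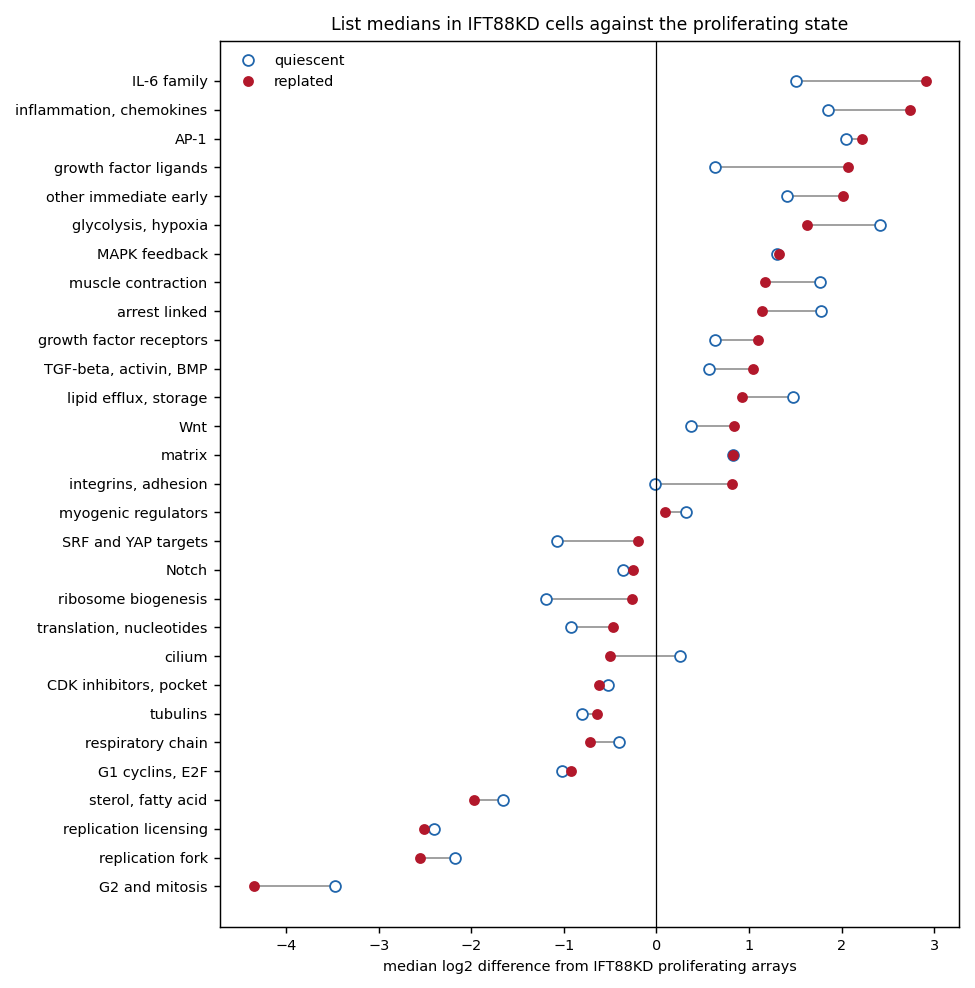
Median log2 difference of each gene list from the IFT88KD proliferating arrays (x axis), in quiescent (open circles) and replated cells (filled circles). Ribosome biogenesis moved from -1.19 to -0.26, arrest-linked genes from 1.78 to 1.14 and the cilium list from 0.25 to -0.50, while G2 and mitosis genes moved from -3.47 to -4.35.

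The plot against proliferating cells places the replated state beside the state the cells had before suspension, as a description without a test. SRF and YAP targets moved from 1.08 under the proliferating level to 0.20 under it. Growth factor ligands went from 0.63 to 2.07 above it, and the IL-6 family from 1.51 to 2.91 above it. At 2 h the replated cells thus had ribosome genes near the proliferating level, cytokine genes beyond it, and mitotic genes farther below it than in suspension. Differences between states carry the uncertainty of scale given above.

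Whether depletion of Ift88 altered this response was tested by the difference between the IFT88KD change and the control change. A constant log2 shift between states that both siRNAs share cancels in this comparison. A compressed scale or a floor on low signals need not cancel where starting levels differ. In limma 0 of 8597 genes passed, with 267 at an unadjusted p under 0.05, and the smallest adjusted p was 0.0649. The count moved with scaling, to 5 on the deposited scale and 4 with centred arrays. With the replicate number as a block 2 genes passed, Fignl1 and Pik3r1, named after their values were seen, and 0 when the block was fitted on the quiescent and replated arrays alone. The 2 changes differed by less than 0.5 log2 for 8417 genes and by 1 or more for 4. In control cells 5524 genes (64.3%) were called, of which 2337 (27.2% of all tested) rose and 3187 (37.1%) fell. Of the genes called in both, 2065 rose in both, 2785 fell in both and 1 moved in opposite directions. That gene, Rfxap, changed by 0.31 in IFT88KD and by -0.32 in control cells (difference 0.62, SE 0.16, adjusted p = 0.768) and was named after its values were seen. Pdgfb rose by 5.28 in control cells, Ccn2 by 5.74, Inhba by 4.18, Srf by 1.54 and Nop2 by 2.14, and Fos fell by 3.61, Txnip by 3.67 and Id2 by 2.77, each with an adjusted p above 0.05 for its difference from the IFT88KD change. A difference that misses the threshold does not show that the responses were alike.

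**Figure D4:**
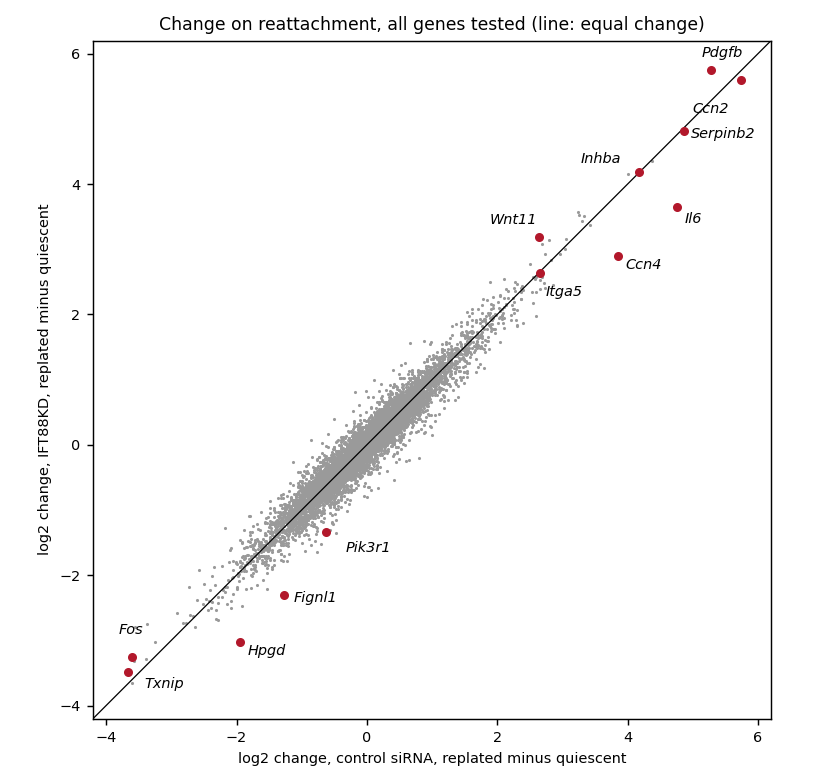
Log2 change on replating in IFT88KD cells (y axis) against control siRNA cells (x axis) for 8597 genes, with a line of equal change. Points follow the line (Pearson r = 0.968 across genes, which are not independent replicates), with Hpgd, Fignl1, Il6 and Ccn4 among those farthest from it and 0 genes past the threshold for the difference.

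The G2 and mitosis list lay to 1 side in this comparison. Its median difference was -0.25, with 44 of 56 genes below 0 (3810 of 8597 among all genes), and 15 of 56 had an unadjusted p under 0.05, but 0 passed after adjustment over all genes in limma, or with the replicate block. In control cells 31 of its genes fell and 5 rose, with a median of -0.43. The genes with the most negative differences were Ect2 (-0.96, SE 0.28, adjusted p = 0.860), Nusap1 (-0.85, SE 0.24, adjusted p = 0.856) and Kif20a (-0.82, SE 0.27, adjusted p = 1), chosen after their values were seen. These genes started from a higher level: in quiescent cells 46 of 56 were higher in IFT88KD than in control cells and 0 lower, with a median of 1.14, and after replating 34 were higher, with a median of 0.79. Of all genes tested 5.55% were called between the siRNAs in quiescent cells (3.06% higher and 2.49% lower in IFT88KD) and 2.63% in replated cells (1.70% higher and 0.931% lower). The quiescent arrays enter both the starting difference and the difference of changes, so the 2 are not independent. On all replated IFT88KD arrays 12 of the 56 genes lay under the filter, Kif20a among them. The sizes of the differences of changes are therefore uncertain, and the part of low signals in them was not tested.

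**Figure D5:**
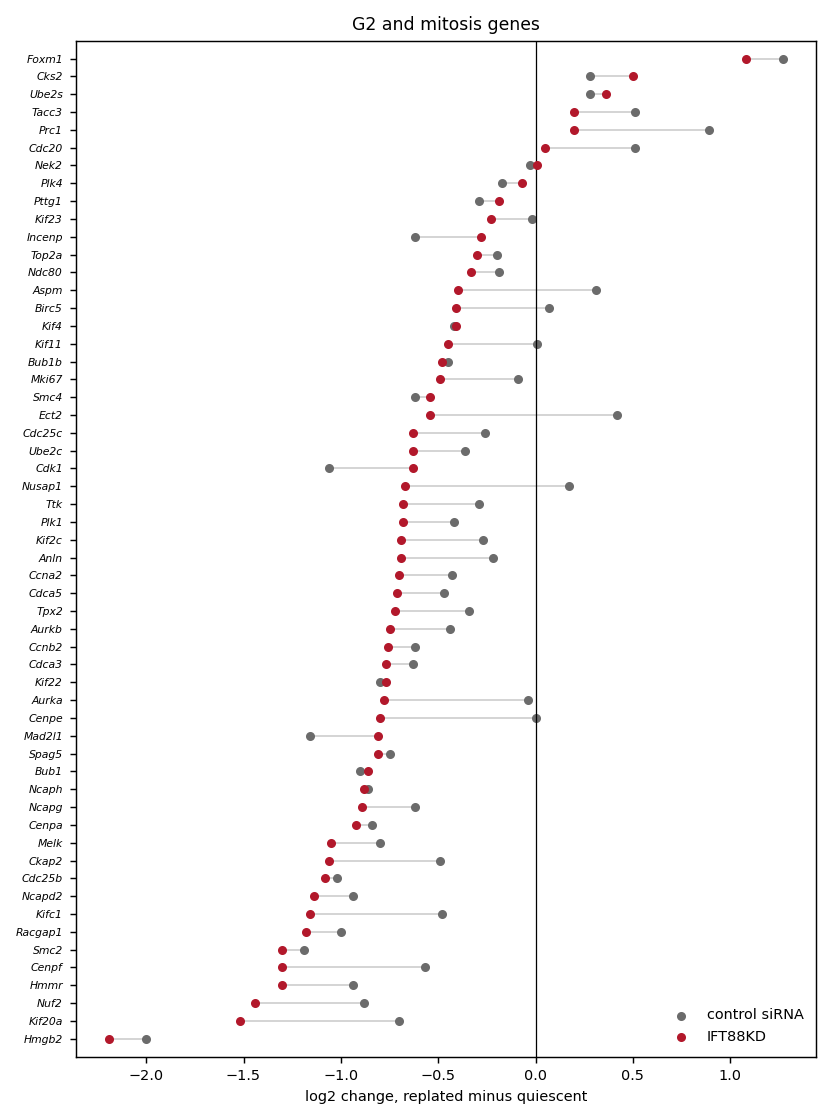
Log2 change from quiescent to replated (x axis) of 56 G2 and mitosis genes (rows) in IFT88KD cells (red) and control siRNA cells (grey), joined by a line. The IFT88KD value lay to the left for 44 genes, with Ect2 (-0.54 against 0.42) and Nusap1 (-0.67 against 0.17) among the widest gaps, and 0 differences passed the threshold.

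Il6 had the largest difference among the genes described, at -1.10 (adjusted p = 1), and Hpgd, which inactivates prostaglandins, the next. Hpgd fell from 4.66, 4.88 and 4.41 to 1.55, 1.66 and 1.67 in IFT88KD cells and from 3.16, 3.5 and 3.26 to 1.25, 1.26 and 1.56 in control cells. The difference was -1.07 (SE 0.23, adjusted p = 0.272). The quiescent levels did not overlap between the siRNAs. The replated levels were under the filter with both, so the size of the difference is uncertain. A second Hpgd probe set changed by -0.02, from a quiescent mean of only 1.17. For Ccn4 the difference was -0.96 (SE 0.19, adjusted p = 0.163), with control values of 5.61, 5.68 and 5.75 before and 9.66, 9.55 and 9.39 after replating, so the replated levels overlapped and the quiescent levels were lower in control cells.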

How the data were processed

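RNA of C2C12 cells was hybridised to 24 Affymetrix arrays, in 8 groups of 3 (2 siRNAs by 4 states). The values were deposited by the authors on a log2 scale for 22690 probe sets, as their range shows; the submitters' processing notes name GCOS, Affymetrix Expression Console and affy, with no versions, and the normalisation is not given in the sources used here. Within a state, sorted values of the arrays differed by a median of 0.038 to 0.081, and over all arrays by 0.44. From these values, arrays were quantile normalised over all 24. The platform annotation gave 20380 probe sets 1 gene, 691 several and 1555 none, and 64 were controls. The probe set with the highest mean was kept per gene, with those ending in x_at used only where a gene had no other. Genes above the 40th percentile on at least 3 arrays were tested (8597 of 12393).

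Changes were tested with limma 3.58.1 in R 4.3.3 (1 coefficient per group over all 24 arrays, lmFit and eBayes, Benjamini-Hochberg adjustment at 0.05); every adjusted p is from this fit unless another setting is named. The difference of changes between siRNAs was a contrast of the same fit. The fit was tested on simulated data. Arrays with equal replicate numbers tended to deviate alike. Deviations from group means correlated at 0.284 to 0.337 between equally numbered IFT88KD quiescent and replated arrays and at -0.24 to -0.0659 between unequal numbers. For control arrays the ranges were 0.136 to 0.414 and -0.377 to 0.0483. Deviations from a group's own mean cancel out, so the values for equal and unequal numbers are not independent. The main fit had no block, and the blocked value is given where it changed the call of a gene described or moved a count by over 1.5 times. Genes described by rule were the 15 largest rises and 15 largest falls without overlap between states, up to 6 called members of each of 38 lists by size of change, and a set of core genes and markers. Not all of them are named in the Results. Those left out include the rises of Olr1 (4.36), Arc (3.57) and Spsb1 (3.52) and the largest fall, that of Etfbkmt (-3.65). Olr1 and Arc rose from quiescent means of only 1.68 and 1.53. The members and lists were chosen with earlier results of these data known. Array number limits the precision. Alternatives covered scaling, filter, probe set choice, variance model, array weights, samples fitted, the block, and leaving out each array. Differentiating arrays entered the fit only.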

Additional observations from a re-analysis of the deposited data

Results flagged for a closer look

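The difference between the IFT88KD and control changes on replating passed for 2 genes once the replicate number entered limma as a block, and both were chosen after their values were seen. With the block fitted on the quiescent and replated arrays alone, an alternative chosen after seeing the data, 0 genes passed. Fignl1, which encodes an AAA ATPase linked to DNA repair, differed by -1.05 (SE 0.15, adjusted p = 0.0303), against an adjusted p of 0.0649 without the block. It went from 3.84, 3.86 and 3.88 to 1.72, 1.41 and 1.5 in IFT88KD cells and from 2.54, 2.18 and 2.61 to 1.36, 1.09 and 1.07 in control cells. Its replated arrays lay under the filter with both siRNAs, and its control quiescent arrays already lay near it. The sizes of both changes and of their difference are therefore uncertain, and the part of low signals in them was not tested. Pik3r1, which encodes the p85 regulatory subunit of PI3-kinase, differed by -0.72 (SE 0.11, adjusted p = 0.0303), against an adjusted p of 0.783 without the block. It went from 5.59, 5.60 and 5.84 to 4.34, 4.21 and 4.44 in IFT88KD cells and from 4.92, 4.76 and 5.17 to 4.25, 4.28 and 4.45 in control cells. For Pik3r1 the replated levels overlapped between siRNAs while the quiescent levels were higher in IFT88KD cells. Groups of 3 arrays are too small for a search for outlying samples.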

How the results depend on the processing

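The number of genes called on replating in IFT88KD cells (5441) lay between 4289 with a 60th percentile filter and 6610 on the deposited scale, and between 4968 and 5149 when 1 array was left out. In control cells it lay between 4944 and 5328 when 1 array was left out. The split moved with the scale. Of the calls 43.5% were rises in IFT88KD cells, against 13.1% on the deposited scale and 50.1% with centred arrays, and in control cells the shares were 42.3%, 12.6% and 52.1%. The difference between siRNAs, with 0 genes called, gave 5 on the deposited scale, 4 with centred arrays, 1 with the 60th percentile filter, 3 with array weights, 2 with the replicate block and 0 to 1 when an array was left out (1 without IFT88KD replated replicate 1). The block with centred arrays, chosen after seeing the data, gave 10, and the block on the quiescent and replated arrays alone, chosen likewise, gave 0 (420 at an unadjusted p under 0.05). The cause of these differences was not tested. On the deposited scale the change turned for Atg7 (-0.26), Boc (-0.40), Csf1r (-0.39), Fosl2 (-0.02), Nrarp (-0.10), Oas1a (-0.14), Tubb4a (-0.11) and Wnt10b (-0.01), and with the mean of probe sets for Hspa4 (-0.06) and Psma5 (0.01). The replicate block brought past the threshold 6 of the genes described by rule (Cdkn1a, Myod1, Actc1, Cdh15, Retn and Sox9) and changed no other call among them. Of the other probe sets of these genes, 22 of 191 changed in the opposite direction and 77 in the same direction but by over 1.5 times less, which bears on the sizes given. Probe sets near background limit the size of a change. With 3 arrays a group, a difference between siRNAs that was not called may still exist.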
